A study of Mus musculus with 2 samples.

Results

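The genes described here encode the DNA replication machinery of the mouse: 52 genes of the 43346 listed, chosen by symbol for their roles in origin licensing, the helicase, the polymerases, the sliding clamp and its loader, the supply of nucleotides, chromatin assembly and protection of the fork. All 52 symbols were found in both gene tables. The choice used no threshold on a measured value, but it was made with earlier results of these data known. MEL cells, an immortal erythroleukemia line of the mouse with features of red blood cell precursors, were profiled as polyadenylated RNA by single-end sequencing. They form 1 group with biological replicates 1 and 2, and the labels name no treatment, time or genotype; therefore levels, the balance between subunits and the spread between replicates are described, and no condition was compared. Whether the replicates came from separate cultures is not said beyond the word biological, and the spread between them may be partly technical.

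A eukaryotic chromosome is copied from many origins. The origin recognition complex (ORC), with CDC6 and CDT1, loads the ring of MCM2 to MCM7 onto DNA in G1 phase, and in S phase the DDK and CDK kinases turn that ring into the active CMG helicase by adding CDC45 and GINS. Polymerase alpha-primase then starts each strand, RFC loads the clamp PCNA, polymerases delta and epsilon extend, and the CAF-1 complex places histones on the new DNA; most of these genes are classical targets of E2F transcription factors in dividing mammalian cells.

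The promoters of 3 MCM genes are shown because they hold the most matches to an E2F-type motif, spelled TTTNNCGC and searched on both strands, among the members; ties were broken by level. The sequences are the 250 bases before the RefSeq transcript start on build GRCm38.p6, written along the strand of the gene, with matches in capitals. All 3 genes lie in the helicase ring. Mcm6 is at chr1:128359706-128359955 on the minus strand, Mcm7 at chr5:138171884-138172133 on the minus strand and Mcm5 at chr8:75109259-75109508 on the plus strand.

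Mcm6: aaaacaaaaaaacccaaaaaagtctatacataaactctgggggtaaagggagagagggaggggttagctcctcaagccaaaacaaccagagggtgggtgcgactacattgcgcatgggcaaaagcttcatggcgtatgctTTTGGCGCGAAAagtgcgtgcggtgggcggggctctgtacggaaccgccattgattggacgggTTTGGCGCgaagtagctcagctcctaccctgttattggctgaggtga

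Mcm7: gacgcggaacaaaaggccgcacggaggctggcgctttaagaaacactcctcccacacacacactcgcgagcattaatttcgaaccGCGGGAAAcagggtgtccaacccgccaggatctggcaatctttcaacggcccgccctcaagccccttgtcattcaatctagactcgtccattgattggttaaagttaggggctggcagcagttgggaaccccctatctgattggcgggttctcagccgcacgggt

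Mcm5: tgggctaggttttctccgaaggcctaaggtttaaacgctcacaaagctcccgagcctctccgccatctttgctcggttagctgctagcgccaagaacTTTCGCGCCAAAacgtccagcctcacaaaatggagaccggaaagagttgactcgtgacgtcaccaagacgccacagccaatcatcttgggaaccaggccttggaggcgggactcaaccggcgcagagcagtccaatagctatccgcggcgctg

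Mcm6 held 3 matches, a pair that overlap on opposite strands and a further copy nearer the start. Mcm5 held 2 matches that overlap in the same back-to-back form. Mcm7 held 2 matches, of which 1 is printed and the other lies after the start, outside the bases shown. A RefSeq window from 250 bases before to 50 after the start was at hand for 43 of the 52 genes, and 15 of these (34.9%) held the motif at least once, against 7.16% of 17492 protein-coding genes and 11.8% of 5457 protein-coding genes at 10 TPM or more in each replicate. TPM is the abundance of a gene's transcripts, corrected for length and scaled to a fixed sum in each library. The 15 were Orc1, Orc3, Cdc6, Cdt1, Mcm3, Mcm5, Mcm6, Mcm7, Gins3, Rfc3, Pola1, Pold1, Pole2, Lig1 and Clspn, so the motif was found from licensing to fork protection. Genes with several windows had more chances of a match; counted by window, 28.8% of the members' windows and 6.24% of all protein-coding windows held it. A match is a run of letters and not a shown binding site, and no match says only that these letters are not in the window.

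Of a further pair of motifs, CCAAT, the letters bound by NF-Y, was in 58.1% of the members with a window, beside 42.3% of all protein-coding genes. TTTGAA, the core of the CHR element known from mitotic genes, was in 16.3% of the members, beside 18.5% of all protein-coding genes. In a list of 40 mitotic genes, 32 of them with a window, the order was the other way round: 78.1% held TTTGAA and 15.6% held TTTNNCGC. CCAAT was in 75% of these mitotic genes. The shares for 57 further replication genes, 50 of them with a window, were 30% for TTTNNCGC, 18% for TTTGAA and 44% for CCAAT. For 24 genes of homologous recombination and the Fanconi pathway, 20 of them with a window, they were 20%, 10% and 70%. CCAAT was therefore not particular to the members. All motifs were searched on both strands, and overlaps between different motifs were not counted.

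Expected counts on genes summed to 67735380 in replicate 1 and 79923143 in replicate 2. A gene with 0 counts could still hold up to 4.43e-06% and 3.75e-06% of them, a limit for counting error only. The members took 0.754% and 0.792% of these counts. Of 16 erythroid markers 14 reached 10 TPM in both replicates, with summed levels of 5295 and 7325 TPM, while Slc4a1, the red cell anion exchanger, was at 0.48 and 0.26 TPM. No myeloid or lymphoid marker (0 of 8 each) reached 1 TPM in both replicates, and 2 of 8 fibroblast and epithelial markers did.

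All 52 replication genes had at least 10 TPM in both replicates, which 31.4% of the 21474 protein-coding genes did, and 46.8% of these genes reached 1 TPM. At 50 TPM the count was 33 of 52 beside 10.8%, and at 100 TPM it was 14 of 52 beside 5.38%. The median of the members' mean TPM was 73.7, beside 40.8 for protein-coding genes that themselves reached 10 TPM. The further replication genes had a median of 55.9 TPM, the mitotic genes 84.5 TPM, and 24 genes of homologous recombination and the Fanconi pathway 16.3 TPM, of which 13 reached 10 TPM. Members ran from Gins3 at 13.2 ± 3.62 TPM (SD, n = 2) to Pcna at 464 ± 76.4 TPM (SD, n = 2), and even Gins3 was above 69.1% of protein-coding genes.

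**Figure D1:**
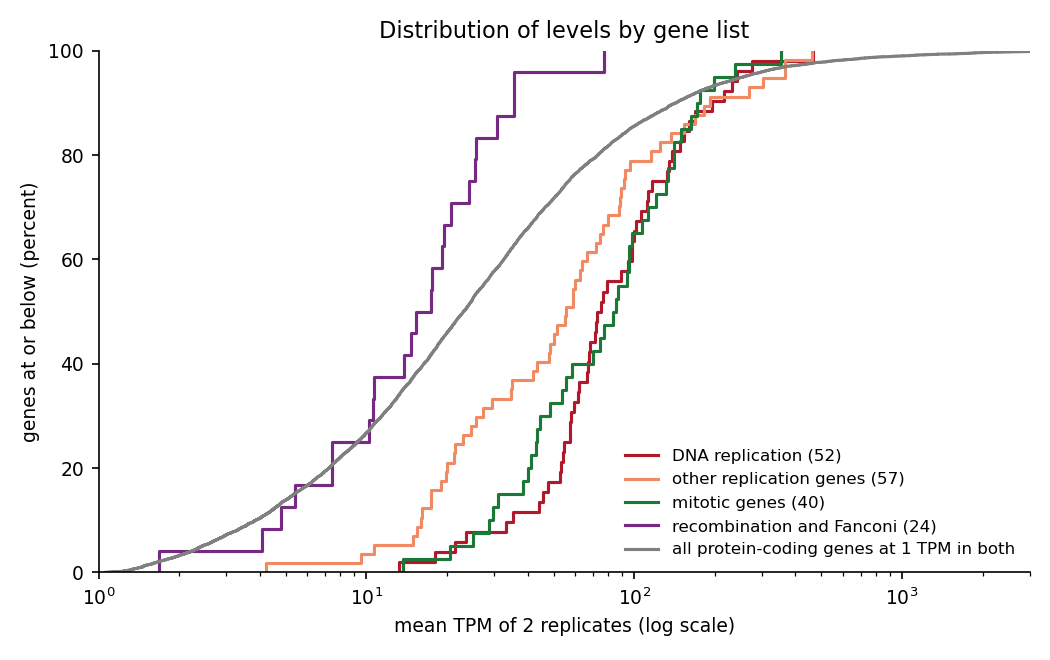
Cumulative distribution of the mean TPM of both replicates (log scale) for the replication genes, 3 other lists and protein-coding genes at 1 TPM or more in each replicate. The curve of the 52 replication genes starts at 13.2 TPM, lies close to that of the mitotic genes and lies to the right of the recombination and Fanconi genes, whose median was 16.3 TPM.

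**Figure D2:**
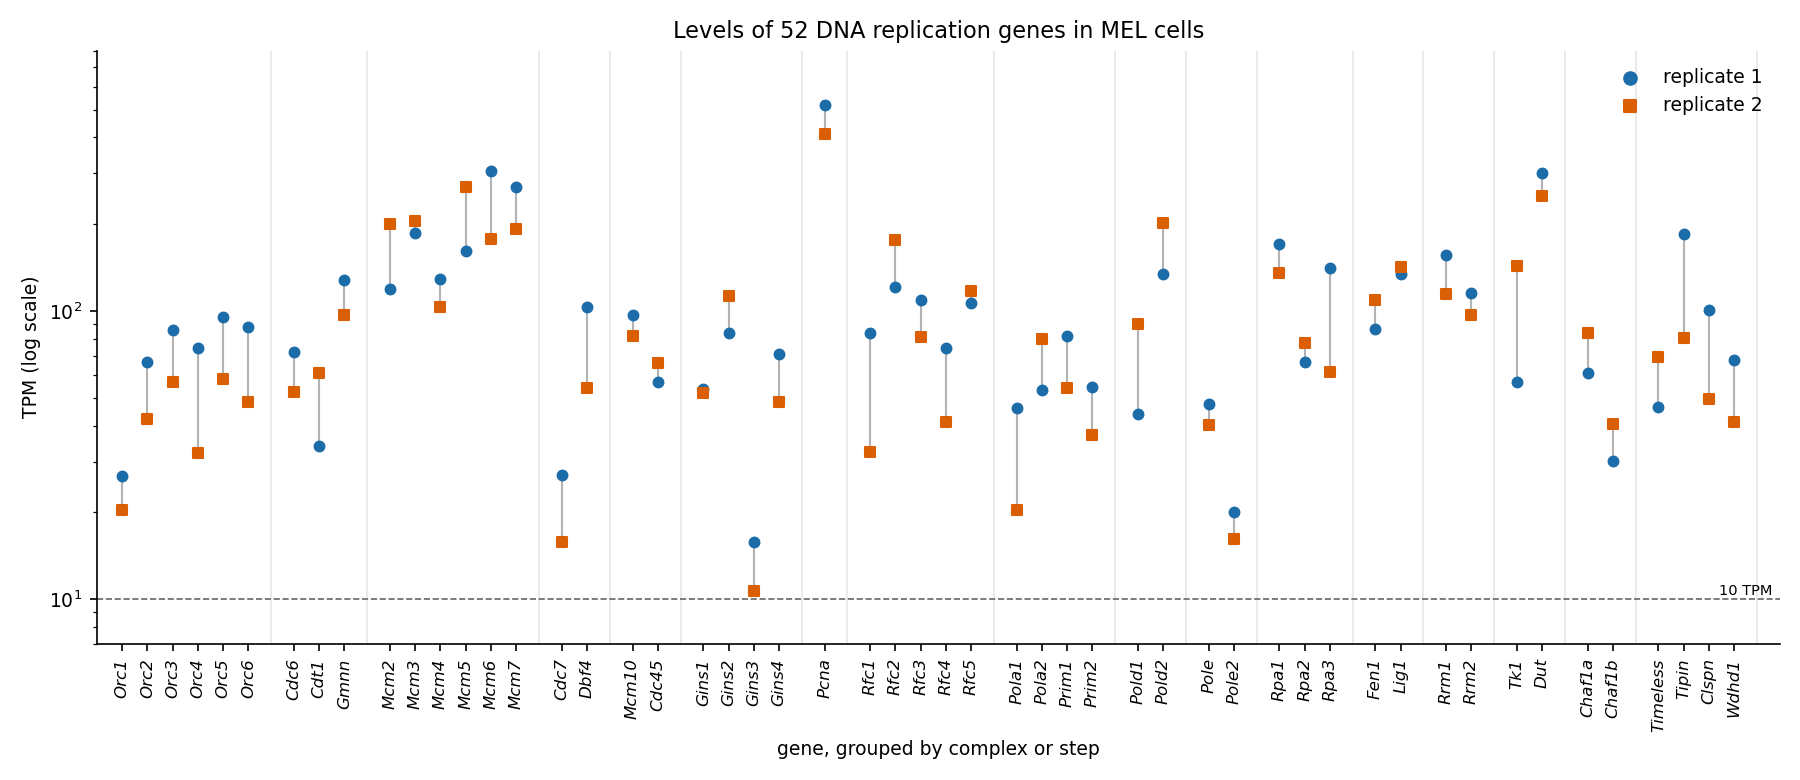
TPM of each of the 52 genes in replicate 1 (circles) and replicate 2 (squares), on a log scale, grouped by complex or step. Every point lies above 10 TPM, Pcna is highest in both replicates and the 6 MCM genes all lie above 100 TPM.

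The 6 ORC genes encode the ATPase-like ring that marks origins, together with ORC6, which helps recruit the MCM ring. Orc1, the subunit that is degraded and remade through the cell cycle in human cells, was lowest in both replicates at 26.7 and 20.3 TPM. Orc5 was highest in both, at 95.4 and 58.0 TPM. The other subunits, Orc2, Orc3, Orc4 and Orc6, lay between 66.7 and 88.3 TPM in replicate 1 and between 32.1 and 56.5 TPM in replicate 2, so the 6 genes kept Orc1 at the bottom while the middle of the order changed.

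To say when a pair of subunits stood apart, the ratio of their TPM had to have the same sign in both replicates and a mean size above 1.23 on the log2 scale (2.34-fold), the 95th percentile of the difference between replicates over protein-coding genes at 10 TPM. Of 72 pairs within a complex or step 13 stood apart (18.1%), beside 38.8% of 1254 pairs of members taken from different complexes or steps and 37.7% of all pairs of members. The licensing factors, helicase activators, Okazaki fragment enzymes, other nucleotide supply and fork protection genes were grouped by step and not as subunits of a complex. Gmnn over Cdt1 and Dut over Tk1, both among the 13, come from such groups. In 8 of the 13 each replicate alone was over the limit, and in 20 of the 72 the sign changed between replicates. With transcripts annotated protein-coding alone the count was 24, made up of 9 of the 13 and 15 other pairs, and the mean ratio changed sign in 15 of the 72. The count was 24 with a limit of 2-fold and 7 with the limit taken over all genes tested. No share for pairs from different complexes is given at these settings or on coding transcripts. The contrast with 38.8% is therefore shown only for all transcripts at the 2.34-fold limit. Within ORC, Orc3, Orc5 and Orc6 stood apart from Orc1, by 2.98-fold, 3.18-fold and 2.79-fold in the mean. On coding transcripts alone Orc3 was at 45.4 and 14.6 TPM and Orc1 at 21.98 and 19.5 TPM. Orc3 then no longer stood apart from Orc1, and Orc1 was not lowest in replicate 2. Other ORC pairs were gained: Orc5 and Orc6 stood apart from Orc3 and Orc4 as well as from Orc1, and Orc2 from Orc1.

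Among the licensing factors, Cdc6, the ATPase that joins ORC to the MCM loader, was at 72.0 and 52.5 TPM. Cdt1, which brings the MCM ring, was at 33.9 and 61.0 TPM, and Gmnn, which encodes geminin, the inhibitor of CDT1, was at 128 and 96.6 TPM. Geminin was the highest of the 3 in both replicates, and the order of Cdc6 and Cdt1 turned over. Gmnn stood apart from Cdt1 by 2.44-fold in the mean, but the ratio was 3.77-fold in replicate 1 and 1.58-fold in replicate 2, below the limit, so this call rests on replicate 1. The pair did not stand apart on coding transcripts alone, at 2.17-fold.

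The MCM2 to MCM7 genes encode the 6 subunits of the helicase ring. Among the multi-subunit complexes of the members, they had the highest means over subunits, 195 and 192 TPM. Complexes of the further replication genes were not part of this ranking. Mcm6 was at 307 and 177 TPM, Mcm7 at 269 and 193 TPM, and Mcm5 at 162 and 269 TPM. Mcm3 was at 186 and 206 TPM, Mcm2 at 119 and 201 TPM, and Mcm4 at 129 and 103.3 TPM. All 6 reached 100 TPM in both replicates, as did 8 of the other 46 members (Pcna, Rfc2, Rfc5, Pold2, Rpa1, Lig1, Rrm1 and Dut). The ring held to within 2.58-fold from lowest to highest subunit in replicate 1 and 2.61-fold in replicate 2, none of its 15 pairs stood apart, on all transcripts or on coding ones alone, and in 9 of the 15 the sign changed, so no order of the 6 subunits can be given from these replicates. The paralogs Mcm8 and Mcm9, which act in recombination and not in the ring, were lower: Mcm8 was at 23.5 and 16.6 TPM and Mcm9 at 4.4 and 4.03 TPM. The pair Mcm2 and Mcm8 stood 7.79-fold apart and Mcm2 and Mcm9 35.9-fold apart.

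DDK consists of the kinase CDC7 and its activating partner DBF4. Cdc7 was at 27.0 and 15.8 TPM and Dbf4 at 104 and 54.0 TPM. Both genes were lower in replicate 2, and the partner exceeded the kinase by 3.83-fold in replicate 1 and 3.41-fold in replicate 2, so the pair stood apart with little spread in the ratio. The factors that turn the ring into the active helicase were closer together. Mcm10 was at 97.0 and 81.6 TPM, and Cdc45 at 56.7 and 66.2 TPM, a pair that did not stand apart. On coding transcripts alone the order turned, with Mcm10 at 30.9 and 40.6 TPM below Cdc45 at 56.7 and 66.2 TPM, still within the limit.

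GINS, the 4-subunit complex that joins CDC45 on the ring, had uneven levels, 5.29-fold from lowest to highest in replicate 1 and 10.5-fold in replicate 2. Gins3 was lowest at 15.7 and 10.6 TPM, Gins1 was at 53.6 and 52.01 TPM, and Gins4 at 70.8 and 48.2 TPM. Gins2 was highest at 83.8 and 113 TPM. Gins1, Gins2 and Gins4 each stood apart from Gins3, by 4.06-fold, 7.47-fold and 4.49-fold in the mean, and each exceeded the limit in both replicates. For Gins2 this did not hold on coding transcripts alone, where it was at 5.58 and 15.5 TPM, 1.39-fold below Gins3 in the mean, with opposite signs in the replicates. Gins1 and Gins4 still stood apart from Gins3. The level of Gins2 is uncertain, because 67.3% of its exon bases overlap exons of Gse1 on the opposite strand and the use of strand is not given, and because most of its TPM lay on transcripts not annotated as coding (described with the transcripts).

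**Figure D3:**
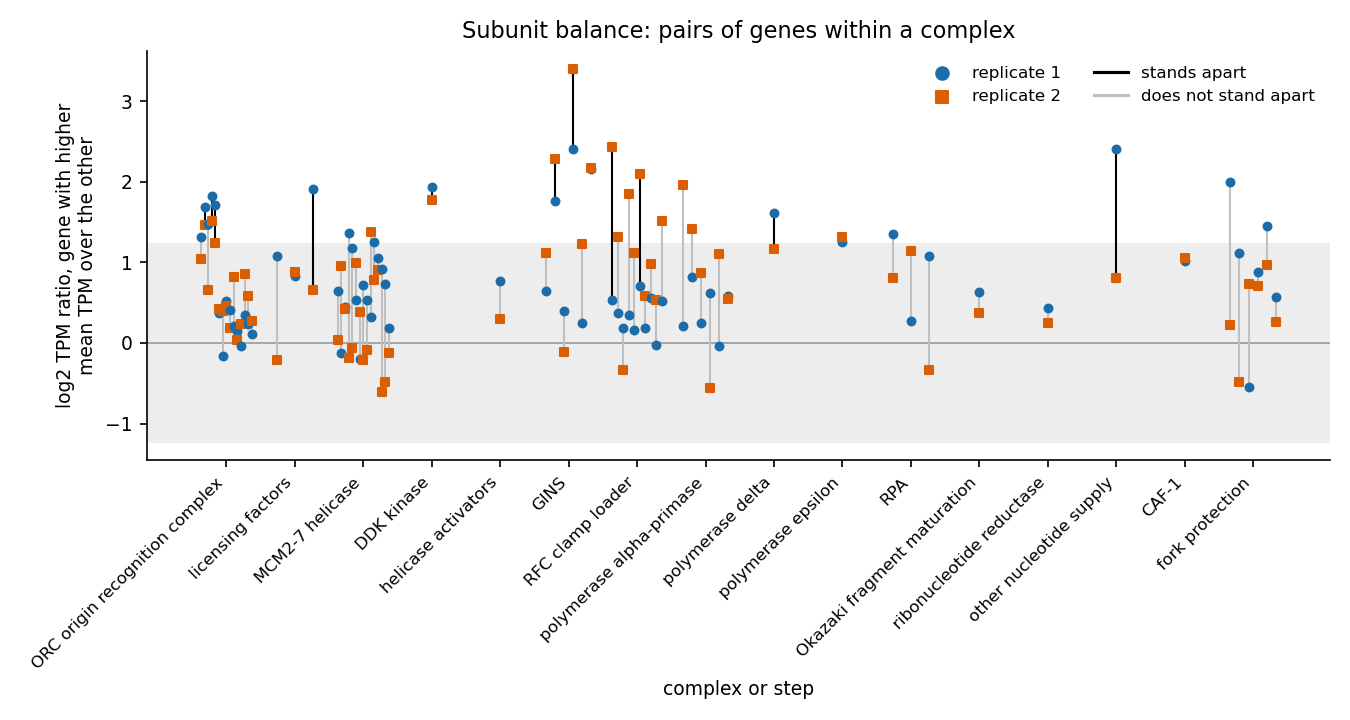
Log2 TPM ratio of each pair of genes within a complex or step, the gene with the higher mean TPM over the other, in replicate 1 (circles) and replicate 2 (squares). The grey band is the limit of 1.23 either way; black lines mark the 13 pairs that stood apart, among them 3 of GINS and 3 of ORC, and grey lines the others, among them all 15 MCM pairs.

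PCNA is the sliding clamp that tethers polymerases to DNA. Pcna was the highest member in both replicates, at 518 and 410 TPM, and ranked 238 among protein-coding genes by mean TPM. Of the RFC clamp loader, Rfc2 was at 121 and 176 TPM, Rfc3 at 109 and 81.2 TPM, and Rfc5 at 107 and 117 TPM. Rfc4 was at 74.2 and 41.0 TPM, and Rfc1, the large subunit, at 84.2 and 32.5 TPM. The 5 subunits lay within 1.64-fold in replicate 1 and 5.41-fold in replicate 2, so the RFC genes were near level in the former and uneven in the latter. Rfc2 stood apart from Rfc1 by 2.80-fold and from Rfc4 by 2.65-fold in the mean, and in replicate 1 alone neither ratio, 1.44-fold and 1.64-fold, reached the limit. Of the large subunits of alternative loaders, Atad5, which unloads PCNA, was at 29.7 and 13.1 TPM and stood apart from Rfc1, and Chtf18, of the loader tied to cohesion, was at 29.1 and 54.5 TPM and did not. On transcripts annotated protein-coding alone Rfc1 was at 16.3 and 15.7 TPM. This leaves out an Rfc1 transcript of 4751 bases, at 25.5 and 13.4 TPM, that had no match in the annotation used for types. With that transcript left out, Rfc1 did not stand apart from Atad5 and lay 2.19-fold below Chtf18 in the mean. Each of the 4 smaller RFC subunits then stood apart above Rfc1. These calls depend on the unknown type of that transcript and were not recomputed with it.

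Polymerase alpha-primase makes the primers. Its catalytic subunit Pola1 was at 46.0 and 20.3 TPM and the accessory Pola2 at 53.1 and 79.6 TPM. The primase genes Prim1 and Prim2 were at 81.6 and 54.2 TPM and at 54.5 and 37.0 TPM. The primase pair kept 1 ratio, 0.58 and 0.55 on the log2 TPM scale, while Pola2 over Pola1 was 0.21 in replicate 1 and 1.97 in replicate 2, and none of the 6 pairs stood apart. Polymerase delta, the main enzyme of the lagging strand, was represented by Pold1 at 44.0 and 90.1 TPM and Pold2 at 134 and 202 TPM, and polymerase epsilon, of the leading strand, by Pole at 47.6 and 40.2 TPM and Pole2 at 19.98 and 16.2 TPM. Pold2 stood apart from the catalytic Pold1 by 2.61-fold, though in replicate 2 alone the 2.24-fold ratio missed the limit, and the catalytic Pole stood apart from Pole2 by 2.43-fold with both replicates over it. On coding transcripts alone the Pole call was lost, at 1.66-fold, with Pole at 40.5 and 21.9 TPM. The Pold2 call was kept there, at 3.12-fold in the mean, with both replicates over the limit (1.635 and 1.651 on the log2 scale). The catalytic subunits Pold1 and Pole did not stand apart from each other. The smaller subunits Pold3, Pold4, Pole3 and Pole4 had mean levels of 92.5, 21.3, 76.2 and 50.3 TPM.

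RPA coats single-stranded DNA. Rpa1, the large subunit, was at 170.2 and 136 TPM, Rpa2 at 66.7 and 77.7 TPM, and Rpa3 at 141 and 61.3 TPM. Rpa1 was highest in both replicates and the order of Rpa2 and Rpa3 turned over, and no pair stood apart. The lagging-strand enzymes were within the limit of each other on all transcripts: Fen1, the flap nuclease, was at 86.8 and 109 TPM, and Lig1, the ligase that seals Okazaki fragments, at 135 and 142 TPM. Dna2, the nuclease for long flaps, was at 38.2 and 31.5 TPM and stood 2.81-fold below Fen1, while Lig3, the mitochondrial and repair ligase, was at 61.7 and 65.7 TPM and did not stand apart from Lig1. On coding transcripts alone Lig1 was at 34.5 and 12.95 TPM, and both orders turned: Lig1 stood apart 4.59-fold below Fen1 and lay 2.24-fold below Lig3, within the limit. These values turn on the type given to Lig1-209, described with the transcripts.

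Ribonucleotide reductase makes deoxynucleotides. Its S phase subunits Rrm1 and Rrm2 were at 156 and 115 TPM and at 116 and 96.5 TPM, a pair that did not stand apart. Rrm2b, the p53-induced form of the small subunit, was at 12.3 and 6.84 TPM, so that Rrm2 was 11.4-fold higher in the mean. Tk1, the thymidine kinase of the S phase cytosol, was at 56.6 and 143 TPM, the member with the largest excess of replicate 2 over replicate 1, beside 14.6 and 15.3 TPM for the mitochondrial Tk2. Dut, which removes dUTP, was at 302 and 250.4 TPM and stood apart from Tk1 by 3.06-fold in the mean. With 1.75-fold in replicate 2, this call rests on replicate 1 when all transcripts are taken. On coding transcripts alone Tk1 was at 45.5 and 81.9 TPM. Dut then stood apart by 4.49-fold in the mean, with both replicates over the limit, at 2.73 and 1.61 on the log2 scale. Among 11 further genes of nucleotide supply the mean level ran from 9.55 TPM for Rrm2b to 302 TPM for Dtymk, thymidylate kinase, with Tyms, thymidylate synthase, at 125 TPM, of which 1.96 and 10.2 TPM were on coding transcripts in replicates 1 and 2.

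CAF-1 places new histones H3 and H4 behind the fork. Chaf1a was at 61.1 and 84.1 TPM and Chaf1b at 30.1 and 40.6 TPM. Both were higher in replicate 2, and Chaf1a exceeded Chaf1b by 2.03-fold and 2.07-fold, ratios that stayed under the limit; 52.5% of the exon bases of Chaf1a overlap exons of Ubxn6 on the opposite strand. RBBP4, the third CAF-1 subunit, which also serves other chromatin complexes, was higher, with Rbbp4 at 211 and 95.8 TPM. Ssrp1 and Supt16, the subunits of the histone chaperone FACT, had mean levels of 365 and 137 TPM. The fork protection genes Timeless and Tipin, whose products bind each other, were at 46.2 and 69.0 TPM and at 185 and 80.8 TPM, so Tipin exceeded its partner by 3.998-fold in replicate 1 and 1.17-fold in replicate 2 and the pair did not stand apart. On coding transcripts alone it did, at 4.403-fold in the mean. Clspn, which carries the checkpoint signal to CHK1, was at 100.4 and 49.3 TPM, and Wdhd1, which links the helicase to polymerase alpha, at 67.7 and 41.3 TPM. The 8 checkpoint genes listed had a median of 22.1 TPM and 6 of them reached 10 TPM in both replicates. Chek1 was highest in the mean at 62.7 TPM, with 99.8 and 25.6 TPM. Of its TPM, 57.5 in replicate 1 and 3.23 in replicate 2 lay on a transcript of 310 bases.

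The replicates differed by more than counting error, and the difference followed base composition. With 1 library against 1 there is no test, and a member was called apart at 2-fold in expected counts scaled by TMM, a normalization of library sizes; in bulk RNA, fewer cells in S phase and less RNA per cell cannot be told apart. By this rule 6 of 52 members (11.5%) were apart, beside 20.4% of 15229 genes tested and 12.2% of protein-coding genes at 10 TPM, so the share was not above the background. Orc4, with 5471 and 2449 counts, had a log2 ratio of replicate 2 over replicate 1 of -1.52. Rpa3 had -1.21, Tipin -1.20, Pola1 -1.18 and Dbf4 -1.04, all higher in replicate 1, a direction in which 12.4% of genes tested were called. Tk1, with 3391 and 9362 counts, was the member higher in replicate 2, at 1.11, beside 7.99% of genes tested in that direction. The largest counting SE of a member's log2 ratio was 0.05 and the lowest count was 1480, so each of these 6 differences was many times its counting error.

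The 5 genes higher in replicate 1 had transcripts of 34.2% to 41.5% GC and Tk1 one of 51.9%, around a median of 48.3% for the members. Over the 52 genes the log2 count ratio and GC content had a Pearson correlation of 0.84 and a Spearman correlation of 0.84, given as a description, since all points share the same pair of libraries; Spearman's value was 0.74 over 15081 genes tested. Of the 26 members with higher GC, 20 were higher in replicate 2 (median log2 ratio 0.30), and of the 26 with lower GC, 2 were (median -0.60). With the GC trend of all genes removed by a lowess curve, 0 of 52 members were 2-fold apart, beside 9.03% of genes tested, and the members lay between -0.70 for Gins4 and 0.88 for Pola2. The genes tested reach down to 20 counts in both replicates together. A share for protein-coding genes at 10 TPM was not computed after removal, so 9.03% is not a background matched for level. At 1.5-fold, 21 members were apart before removal and 4 after. The further replication genes had 13 of 57 apart (22.8%), 9 of them higher in replicate 1, and the mitotic genes 14 of 40 (35%), all higher in replicate 1.

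**Figure D4:**
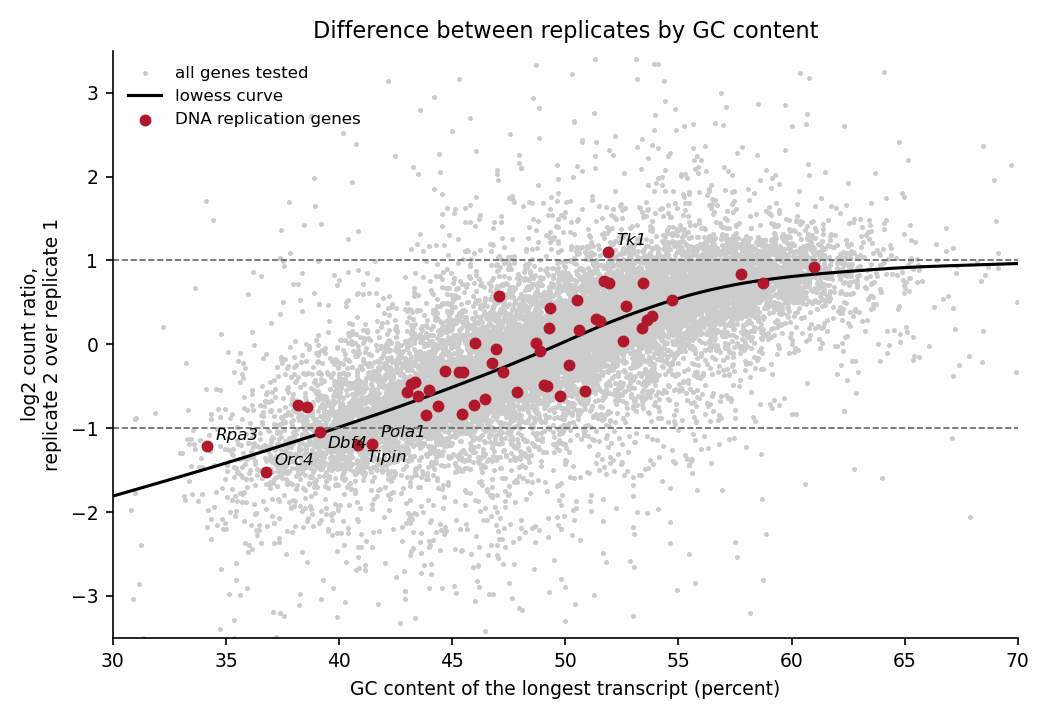
Log2 ratio of scaled expected counts, replicate 2 over replicate 1, against the GC content of the longest transcript, for all genes tested (grey) and the 52 replication genes (red), with the lowess curve over all genes (black) and dashed lines at 2-fold. The 6 named genes lie past the dashed lines, and the red points follow the curve.

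By TPM, 8 members were 2-fold apart, beside 13.1% of protein-coding genes at 10 TPM: Rfc1 at -1.37 on the log2 scale, Orc4, Rpa3, Tipin, Pola1 and Clspn at -1.22, -1.20, -1.20, -1.18 and -1.02, and Pold1 and Tk1 at 1.03 and 1.33. TPM and counts moved differently in a few genes. The log2 ratio of TPM differed from that of counts by over 0.5 in 3 members, Mcm7, Rfc1 and Clspn, and had the other sign in 4, Mcm7, Mcm10, Pole and Rrm2. Mcm7 had a count ratio of 0.20 and a TPM ratio of -0.48. In Mcm7 and Rfc1 the share of TPM assigned to short transcripts differed between replicates. Mcm7-209, of 795 bases, took 35.3% of the gene's TPM in replicate 1 and 0% in replicate 2, and an Rfc1 transcript of 485 bases took 48.1% and 7.01%. A retained-intron transcript of Mcm6, of 588 bases, took 33.1% and 0%, beside a TPM ratio of -0.79 and a count ratio of -0.33 for the gene.

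A gene's TPM sums all of its transcripts, coding or not. Transcript types come from GENCODE M21, matched by identifier, whereas the files use M4, and 130 of the members' 262 transcripts had the same version in both. Transcripts annotated protein-coding carried 82.1% and 83.8% of the members' TPM, retained introns 10.1% and 9.94%, and other processed transcripts 6.31% and 5.12%. The most abundant transcript was shared by the replicates in 30 of the 41 members with several transcripts (73.2%), beside 78.4% of protein-coding genes at 10 TPM with more than 1. In 28 of the 52 members at least 90% of TPM was on coding transcripts in both replicates, 11 of which had a lone transcript, and in 6 members less than 50% was in both: Mcm10, Gins2, Rfc1, Rfc5, Lig1 and Timeless. For Rfc1 the coding share leaves out its transcript of 4751 bases, which had no match in M21 and so no known type.

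In 7 of the 41 (17.1%) the most abundant transcript was not annotated protein-coding, beside 12.3% of 5175 protein-coding genes at 10 TPM with more than 1 transcript. They were Orc3, Orc4, Mcm10, Gins2, Lig1 and Timeless, with a type other than protein-coding, and Rfc1, whose 485-base transcript had no match in M21 and so no known type. From replicate 2 alone the count was 4 and from replicate 1 alone it was 8. In Gins2, a retained-intron transcript of 511 bases took 34.4% and 48.5% of TPM and a processed transcript of 473 bases 44.9% and 23.2%, while the coding Gins2-201, of 3900 bases, took 6.67% and 13.7%. By counts the coding Gins2 transcript held 992 and 3507 of the gene's 4328 and 9200 expected counts, since TPM weights short transcripts up. In Lig1, a transcript of 3054 bases, Lig1-209, took 69.8% and 83.6%; its version differs between the annotations, so its type in the files' own annotation is not known here. Orc6 held its TPM on coding transcripts but not on the same one: Orc6-202 took 74.9% and 33.5%.

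**Figure D5:**
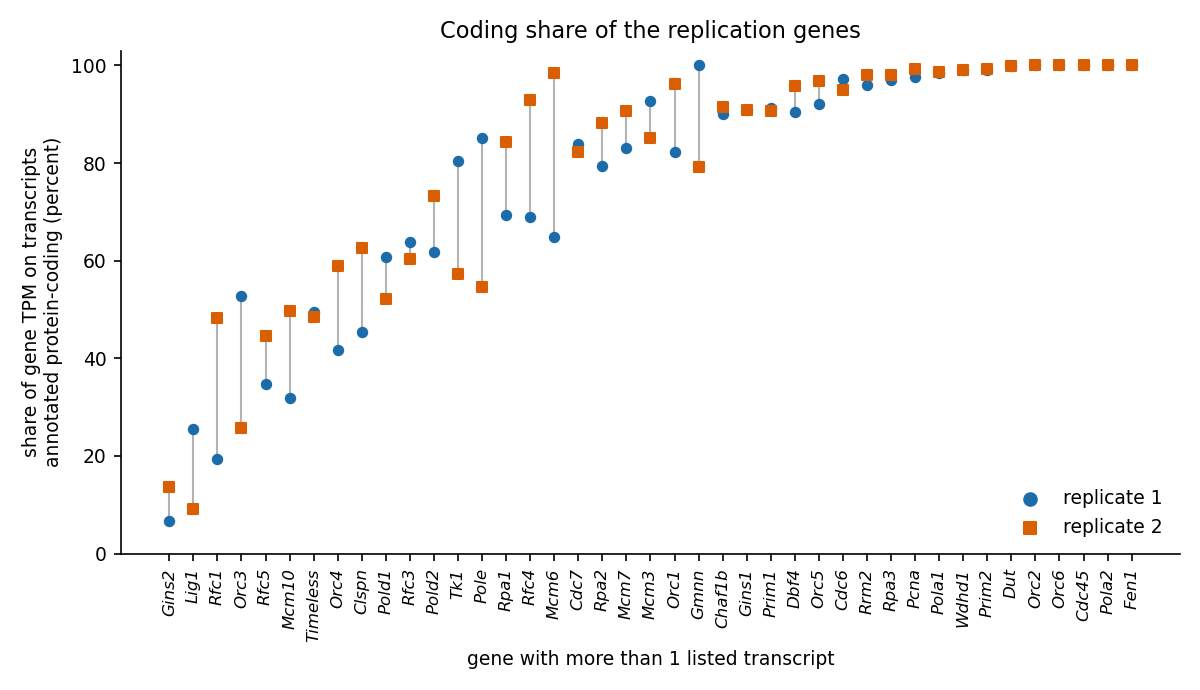
Share of each gene's TPM on transcripts annotated protein-coding, in percent, in replicate 1 (circles) and replicate 2 (squares), for the 41 members with more than 1 transcript, ordered by the mean share. Gins2 and Lig1 lie at the low end, and the replicates of Mcm6, Rfc1, Orc3 and Pole lie far apart.

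Exons of 17 members overlapped those of a gene on the opposite strand. The overlap was over 50% of exon bases in 3: Fen1 with the antisense gene Gm10143 at 78.8%, Gins2 with Gse1 at 67.3% and Chaf1a with Ubxn6 at 52.5%. Gm10143 was listed at 2.98 and 2.63 TPM, Gse1 at 21.6 and 45.8 TPM and Ubxn6 at 27.8 and 44.0 TPM, and without knowledge of the strand, reads of the overlapping genes cannot be told apart. Orc2 shared 29.8% of its exon bases with Nif3l1 and Rfc4 12.7% with Eif4a2, which was itself at 360 and 188 TPM.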

How the data were processed

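Polyadenylated RNA of 2 MEL libraries was analysed. Per the file headers and the text files that accompany them, reads were mapped to mm10 and quantified by gene and transcript with GENCODE M4; which aligner and quantifier were used, and whether strand was used, is not given in the sources used here. The deposited expected counts are estimated reads, and the deposited TPM and FPKM values were divided by effective length by the authors, TPM also to a fixed sum. The deposited percent values give each transcript's share of its gene's TPM, and the deposited score columns hold the posterior SD of the count and the lower and upper credibility bounds of TPM. Spike-in sequences and short numeric features were left out of library sizes, and TPM was not rescaled.

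The members, the gene lists and the 27 preset pairs were chosen with earlier results of these data known. All members could be named, as could the further replication genes and the genes of the preset pairs; of the mitotic, repair and marker lists the 3 highest and 3 lowest could be. GENCODE M21 gave symbols, positions and transcript types. Expected counts, rounded for TMM scaling in edgeR 4.0.16, were compared as log2 ratios with a prior count of 0.5 where both replicates together had 20 counts or more; TPM ratios used a pseudocount of 0.1. GC content came from the longest M21 transcript (99.0% of genes tested), with a lowess fraction of 0.3 in statsmodels 0.14.6. No p-values were computed, since 2 libraries of 1 group leave nothing to test between conditions. The ratio step was tested on simulated data. Alternatives were FPKM, posterior mean TPM, size factors of DESeq2 1.42.0, library totals, other minimums of TPM and counts, other pseudocounts, coding transcripts alone, other limits, removal of the GC trend and each replicate alone; coding TPM for the replicate comparison and GC removal for the pairs were chosen after seeing the data. Values of some single listed genes are left out. A planned search of protein motifs was not made, as no protein sequences were used here. Software was Python 3.11.15, pandas 2.3.3, numpy 2.4.6, matplotlib 3.10.9 and R 4.3.3.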

Additional observations from a re-analysis of the deposited data

How the results depend on the processing

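The count of members at 10 TPM in both replicates was 52 with posterior mean TPM, 49 at 20 TPM and 33 at 50 TPM. It was also 52 at minimums of 1 and 5 TPM and with either replicate left out. Those settings could give no other count, since all 52 passed 10 TPM in both replicates. It was 51 with an FPKM of at least 10. The count was not taken on coding transcripts alone, where Gins2 was at 5.58 TPM in replicate 1, under the minimum. The members' median TPM of 73.7 became 60.3 with coding transcripts alone and 51.98 as FPKM, another unit, and ran from 73.3 to 85.2 with 1 replicate left out. The 6 members 2-fold apart stayed at 6 to 8 under other scalings and TPM, but became 21 at 1.5-fold and 0 with the GC trend removed. Other count minimums also gave 6, but could not change the number, since every member lay far above them. The 13 pairs that stood apart became 24 with coding transcripts alone, 24 at a 2-fold limit and 7 with the limit over all genes tested. They numbered 17 to 18 from 1 replicate, where no agreement in sign is asked. With the GC trend removed they stayed at 13, but that step left each mean ratio unchanged and could not add a pair. It therefore does not show whether the balance depends on GC content. The 7 members whose most abundant transcript was not coding became 4 to 8 with 1 replicate left out. With coding transcripts alone, 15 of 52 mean levels and 11 of 27 preset pair ratios moved by more than 1 SD. That SD is between 2 replicates, so a gene or pair with a wide spread can shift far without being counted. Orc4, from 53.4 to 25.05 TPM, and Rfc1 over Chtf18, which changed sign, are not among those counted. These counts therefore understate the dependence on transcript type. Of these 24 coding pairs, 9 were among the 13, and the 4 calls lost were Orc3 over Orc1, Gmnn over Cdt1, Gins2 over Gins3 and Pole over Pole2; Gins2 over Gins3 also turned, from 2.90 to -0.47 on the log2 scale. Among the preset pairs, none of the 13 that stood apart changed sign, but 4 of the others did on coding transcripts alone: Mcm10 over Cdc45 (0.54 to -0.79), Tk1 over Tyms (-0.47 to 3.73), Rfc1 over Chtf18 (0.39 to -1.13) and Lig1 over Lig3 (1.12 to -1.17). The coding values of Rfc1, here and in the 24 coding pairs, leave out its transcript of 4751 bases, of no known type. The sign of the mean was not that of 1 replicate alone in 5 preset pairs: Cdc6 over Cdt1, Tk1 over Tyms, Pold1 over Pole, Pold1 over Pola1 and Rfc1 over Chtf18. The 4 genes whose replicate ratio had another sign by TPM than by counts are named above. No paired analysis was possible because there is 1 group. Depth does not limit these genes, whose lowest count was 1480; the number of libraries does.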

Other observations

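Beyond the replication genes, the mitotic list of 40 genes reached 10 TPM in both replicates in full, led by Cenpa, the centromeric histone variant, at 328 and 381 TPM, Ncapd2, a condensin subunit, at 167 and 308 TPM, and Birc5, survivin, at 235 and 162 TPM. The lowest were Cenpe, a kinetochore motor, at 36.5 and 13.4 TPM, Ttk, a spindle checkpoint kinase, at 28.9 and 12.1 TPM, and Cdc25c, a phosphatase of mitotic entry, at 14.3 and 13.1 TPM. Of the 24 recombination and Fanconi genes, Fance was highest at 50.9 and 104 TPM.

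Among the further replication genes the chromatin assembly partners had the highest median of their subgroups, 145 TPM, with Rbbp7 at 508 and 415 TPM. Top2a, the topoisomerase of dividing cells, was at 433 and 301 TPM, and Topbp1, which acts in helicase activation and checkpoint signalling, at 201 and 164 TPM. The other factors of helicase activation were lower, down to Ticrr at 16.0 and 16.0 TPM, and Recql4 was at 12.7 and 22.1 TPM.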
